A study of Mus musculus with 14 samples.

Results

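A set of 50 genes of mitosis, named by symbol, was followed through sorted keratinocytes of mouse dorsal skin, and all 50 were found among the 22033 genes of the deposited files. They were chosen by their known place in mitosis and not by a value in these libraries, although earlier results of these data were known. They fall into 9 roles, from the cyclin switch that opens mitosis to the proteins that split the cell. The mice were wild type, of the strain C57BL/6, at 2 or 24 months of age. Cells sorted by flow cytometry came from bulge stem cells of telogen (resting) skin, from interfollicular epidermis of telogen skin, and from bulge stem cells that the labels call activated, taken from depilated skin. Each population had 2 libraries at each age, so 12 libraries in 6 groups. Sex, the number of mice behind a library, the gates of the sort and the time after hair removal are not given in the sources used here, so a p-value here reflects how far the libraries scatter, and that scatter may be purely technical.

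A cell enters mitosis when Cdk1 bound to a B-type cyclin becomes active, condenses and separates its chromosomes on a spindle under the watch of a checkpoint, and leaves by destroying the cyclins through the anaphase-promoting complex (APC). Many of these genes are transcribed together late in the cycle: in quiescent cells the DREAM complex holds them off, and in cycling cells its MuvB core, joined by B-Myb and Foxm1, switches them on. Bulge stem cells of the hair follicle are known as cells that rest through telogen and divide when a new hair is started, for which plucking is a common trigger, while the basal layer of interfollicular epidermis divides continually.

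A pair of short elements are background to this shared control: the cell cycle genes homology region (CHR), to which MuvB binds, and the CCAAT box, to which the factor NF-Y binds. RefSeq promoter windows of build GRCm38.p6, running from 250 bases before to 50 bases after an annotated start, were matched for 42 of the 50 genes. Both strands were searched for TTTGAA and TTCGAA as CHR and for CCAAT. At least 1 CHR match lay in 35 of the 42 windows (83.3%), against 13.6% of the 8802 windows of tested genes and 19.4% of all 27025 windows. Counting only matches from 100 bases before the start onwards, the share was 76.2% for the mitotic genes and 5.25% for the tested genes. CCAAT was in 34 of the 42 windows (81.0%), against 39.1% of the windows of tested genes, and at least 2 copies were in 54.8% against 15.2%. The E2F element TTCCCGC was in 1 of the 42 windows (2.38%) and in 8.73% of those of tested genes. In 49 windows of further mitotic genes, outside the 50, the shares were 57.1% for CHR, 61.2% for CCAAT and 16.3% for E2F. These are matches of letters, not measured binding.

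The stretches below show how these elements stand before the starts of the members whose levels are described most closely. Of 16 such members, 13 had a window and 7 had a CHR match wholly before the start and within 200 bases of it. The 200 bases before the start are given 5' to 3' on the gene's strand. Capitals mark CHR matches (TTTGAA, its reverse complement TTCAAA, or TTCGAA) and CCAAT in either direction (CCAAT or ATTGG). Bub3 and Cdc25b, the 2 members that did not pass the test of activated against resting bulge, were added after their values were seen.
Mki67 (chr7:135716380-135716579, minus strand): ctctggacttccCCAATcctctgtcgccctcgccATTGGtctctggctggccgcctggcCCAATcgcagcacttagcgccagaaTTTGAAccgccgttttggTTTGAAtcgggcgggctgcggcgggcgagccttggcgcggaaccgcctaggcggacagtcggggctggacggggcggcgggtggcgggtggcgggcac
Top2a (chr11:99024190-99024389, minus strand): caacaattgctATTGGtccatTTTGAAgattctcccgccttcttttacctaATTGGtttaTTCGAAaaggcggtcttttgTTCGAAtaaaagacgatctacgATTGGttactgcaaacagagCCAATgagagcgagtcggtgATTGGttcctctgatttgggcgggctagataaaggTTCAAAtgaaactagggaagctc
Cdk1 (chr10:69352913-69353112, minus strand): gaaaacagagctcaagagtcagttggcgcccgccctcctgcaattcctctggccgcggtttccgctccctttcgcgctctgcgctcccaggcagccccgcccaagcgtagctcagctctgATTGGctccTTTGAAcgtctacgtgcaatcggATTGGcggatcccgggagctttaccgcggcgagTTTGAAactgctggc
Cdc20 (chr4:118437344-118437543, minus strand): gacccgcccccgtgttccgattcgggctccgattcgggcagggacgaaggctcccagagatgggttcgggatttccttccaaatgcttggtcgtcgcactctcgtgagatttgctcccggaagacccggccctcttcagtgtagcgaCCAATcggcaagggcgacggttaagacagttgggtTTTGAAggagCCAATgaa
Bub1b (chr2:118598011-118598210, plus strand): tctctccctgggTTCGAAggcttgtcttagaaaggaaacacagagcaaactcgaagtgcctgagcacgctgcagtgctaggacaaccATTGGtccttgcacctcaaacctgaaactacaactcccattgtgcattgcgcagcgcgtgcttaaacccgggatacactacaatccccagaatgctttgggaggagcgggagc
Kif11 (chr19:37376182-37376381, plus strand): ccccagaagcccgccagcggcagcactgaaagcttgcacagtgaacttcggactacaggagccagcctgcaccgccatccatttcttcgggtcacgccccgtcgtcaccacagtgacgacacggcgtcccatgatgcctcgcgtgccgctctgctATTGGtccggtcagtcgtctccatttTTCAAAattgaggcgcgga
Ube2c (chr2:164769729-164769928, plus strand): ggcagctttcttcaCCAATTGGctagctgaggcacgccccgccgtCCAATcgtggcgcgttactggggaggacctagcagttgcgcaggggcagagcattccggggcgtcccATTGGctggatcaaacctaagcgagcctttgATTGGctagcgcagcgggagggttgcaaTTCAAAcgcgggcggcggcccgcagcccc
Bub3 (chr7:131560170-131560369, plus strand): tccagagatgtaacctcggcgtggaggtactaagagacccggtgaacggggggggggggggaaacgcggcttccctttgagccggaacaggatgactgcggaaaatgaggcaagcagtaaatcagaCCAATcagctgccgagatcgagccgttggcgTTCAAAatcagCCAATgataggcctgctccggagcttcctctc
Cdc25b (chr2:131186748-131186947, plus strand): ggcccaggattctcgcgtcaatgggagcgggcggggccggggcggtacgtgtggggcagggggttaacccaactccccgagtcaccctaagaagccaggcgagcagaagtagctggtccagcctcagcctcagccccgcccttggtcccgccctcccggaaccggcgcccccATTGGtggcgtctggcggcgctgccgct
Positions are the first base of a match, counted from the start with -1 the last base before it. In Mki67 the CHR matches start at -116 and -98, and in Top2a at -179, -140, -120 and -23. Those of Cdk1 start at -71 and -15, that of Cdc20 at -18, that of Kif11 at -19 and that of Ube2c at -29, while Bub1b has its match before the start far out, at -188. In Ube2c a CCAAT and an ATTGG share 2 bases at the far end. Bub3 has a CHR at -43 between CCAAT boxes at -74 and -32, so its window holds the same letters as those of members whose levels it did not follow. Cdc25b has a single CCAAT, at -28, and no CHR before its start, although 1 begins at 7, after it.

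**Figure D1:**
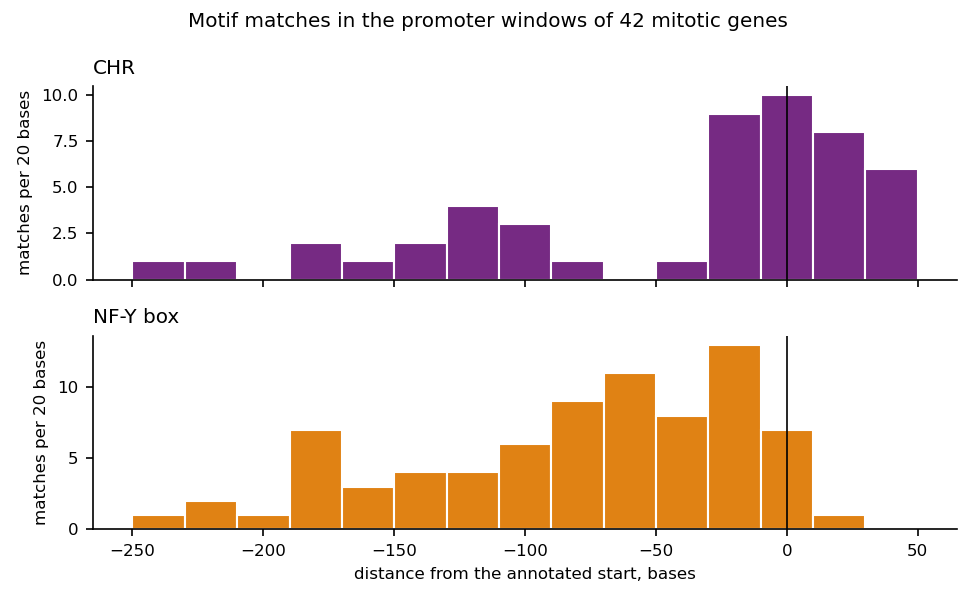
Matches to CHR (top) and to CCAAT (bottom) in 42 promoter windows, counted per 20 bases by distance of the match from the annotated start (0, vertical line). Of the 49 CHR matches, 34 began within 50 bases of the start, with a median position of -15, and the median position of the 77 CCAAT matches was -67.

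Members with and without a CHR in the window had similar differences between activated and resting bulge, the comparison described below. At 2 months the median log2 difference was 2.93 for the 35 members with a match and 2.87 for the 7 without, and at 24 months 2.97 and 2.93. The ranges overlapped, and 4 members had neither element (Melk, Mad2l1, Birc5 and Nusap1).

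Levels are given as FPKM, the count of fragments corrected for transcript length and for library size, divided by a constant common to all libraries, so they can be compared between genes per length. Wherever 4 values follow each other they are replicates 1 and 2 at 2 months and then replicates 1 and 2 at 24 months. The libraries held an estimated 22.4 M to 45.5 M fragments (M, the usual sign for mega). A median member had 183 to 354 fragments in the resting bulge libraries and 1457 to 3092 in the others, and the fewest were 20.2, for Bub1 in replicate 1 of the resting bulge at 24 months. All 50 members passed the filter on low values, at least 1 FPKM in at least 2 libraries, which kept 12468 genes. No member was listed at 0, but 16 were under 1 FPKM in at least 1 resting bulge library and none was in epidermis or activated bulge.

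Of 9 bulge markers all were at 1 FPKM or more in every resting and every activated library, with a summed level of 15887 to 18128 in the resting bulge, 3100 to 3744 in the activated bulge and 2907 to 5838 in epidermis. Krt15 made up most of this sum, and other bulge markers set the activated bulge apart from epidermis: Lhx2 was at 113 to 195 FPKM against at most 2.47 and Tbx1 at 88.0 to 147 against at most 1.47. The basal keratin Krt5 was listed at 0 in all resting bulge libraries and in 3 of the 4 of epidermis beside 10106 FPKM in the fourth, and was left out as a failed estimate together with Krt14. Xist was at 15.8 to 141 FPKM in the 4 activated libraries and at most 0.280 in the other 8, and Y-linked Eif2s3y was at most 0.137 in the activated libraries and at least 18 in the others, so activation and this sex-linked split cannot be told apart. Of 6 fibroblast genes 2 were at 1 FPKM or more in every activated library and 2 in every resting bulge library, their sum ranging from 7.01 to 427 in the activated bulge, from 15.8 to 17.3 in the resting bulge and from 0.121 to 0.629 in epidermis, with Lum listed at 0 in some libraries of all 3 populations. Immune genes summed to 15 to 73.4 FPKM in the activated bulge, 39.6 to 57.0 in the resting bulge and 26.9 to 76.6 in epidermis, and 4 endothelial genes to at most 3.73 in any library. The part of these differences in the results below was not tested.

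Activated bulge from depilated skin was first compared with resting bulge of the same age. At 2 months 48 of the 50 were higher in the activated bulge by limma with an adjusted p under 0.05 (Benjamini-Hochberg over all 12468 genes), where 6.6% of all genes tested were called higher. At 24 months again 48 were called higher, against 4.11% of all genes. Their median log2 difference on the log2(FPKM + 1) scale was 2.92 at 2 months and 2.98 at 24 months, while that of all genes tested was -0.07 and -0.10. The median ratio of group means was 10.4-fold at 2 months and 13.3-fold at 24 months. For these 48 members all 4 resting bulge libraries lay below the other 8 libraries, so resting bulge overlapped neither population. Among all genes tested, activated bulge lay wholly above resting bulge of the same age in 29.2% and 31.3% at 2 and 24 months. Resting bulge lay wholly below epidermis in 21.6% and 27.9%. The share of all genes for 4 libraries against 8 was not computed. The exceptions among the 50 members were Cdc25b and Bub3 at both ages. In bulk samples such as these, fewer dividing cells and less RNA per cell cannot be told apart.

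**Figure D2:**
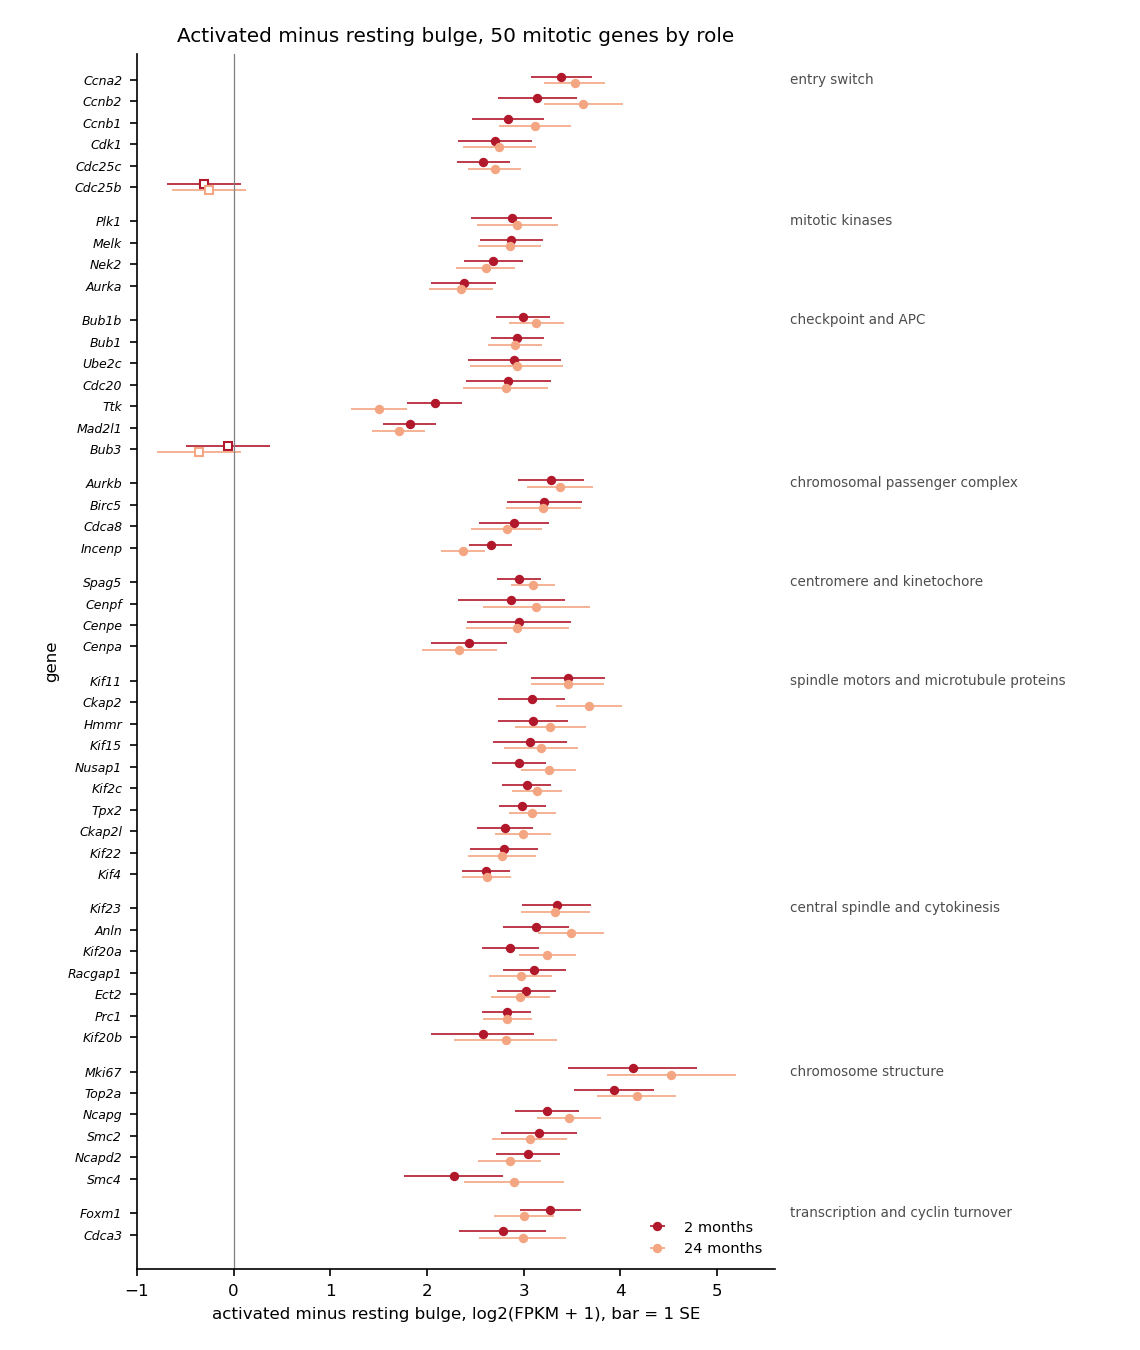
Difference between activated and resting bulge for each of the 50 genes on the log2(FPKM + 1) scale, at 2 months (dark) and 24 months (light), with bars of 1 SE, ordered by role and within a role by size. Filled circles passed an adjusted p of 0.05; open squares, Cdc25b and Bub3, did not. The other 48 lie between 1.5 and 4.53.

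The entry switch comprised 6 genes: the cyclins Ccnb1, Ccnb2 and Ccna2, their kinase Cdk1, and the phosphatases Cdc25b and Cdc25c that free the kinase from its inhibitory phosphates. Of the 6, 5 rose at both ages. Ccna2, the cyclin of S phase and early mitosis, had the largest mean difference of the group, and was at 6.66, 2.98, 2.72 and 3.28 FPKM in the resting bulge, 43.2, 31.5, 37.7 and 35.0 in epidermis and 57.7, 56.0, 48.2 and 42 in the activated bulge. The activated values exceeded the epidermal ones but for replicate 2 at 24 months, which lay just below replicate 1 of epidermis at 2 months. The log2 difference between activated and resting bulge was 3.39 at 2 months (SE 0.316, adjusted p = 0.000284) and 3.53 at 24 months (adjusted p = 0.000233). Ccnb1, the main mitotic cyclin (chromosome 13, 101548694 to 101556441, minus strand, mm9), was at 7, 2.96, 2.85 and 3.31 FPKM in the resting bulge, 51.3, 29.5, 40.2 and 34.4 in epidermis and 42.9, 36.1, 40.3 and 29.1 in the activated bulge. Its epidermal and activated values overlapped, and it rose 7.94-fold on activation at 2 months (log2 2.84, SE 0.372, adjusted p = 0.00115) and 11.3-fold at 24 months. Cdk1 (chromosome 10, 68799383 to 68815660, minus strand) was at 6.42, 2.98, 3.08 and 3.29 FPKM in the resting bulge, 44.5, 22.3, 42.1 and 30.2 in epidermis and 37.4, 31.5, 29.8 and 24.7 in the activated bulge, a rise of log2 2.70 and 2.75 on activation at the 2 ages (SE 0.378, adjusted p = 0.00169 and 0.00191). Cdc25c, which opens the switch at mitotic entry, rose by log2 2.58 and 2.70 from a resting level of at most 1.43 FPKM, and the cyclin Ccnb2 by 3.14 and 3.62.

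Cdc25b stood apart. This phosphatase, a starter of Cdk1 activation late in G2, was at 41.5, 50.5, 44.0 and 41.8 FPKM in the resting bulge, 53.6, 34.1, 56.3 and 25.7 in epidermis and 43.4, 31.2, 38.7 and 33.2 in the activated bulge. The 4 resting values lay within the range of the epidermal ones, and with Bub3 it was the highest of all members there. Its log2 difference between activated and resting bulge was -0.31 at 2 months (95% interval -1.16 to 0.55, adjusted p = 0.618) and -0.25 at 24 months (-1.11 to 0.60, adjusted p = 0.68), where the activated libraries lay below the resting ones.

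The mitotic kinases in the list, other than Cdk1 and those placed with their complexes, were Plk1, Aurka, Nek2 and Melk, and all 4 rose at both ages. Plk1, the polo-like kinase that drives entry, spindle assembly and cytokinesis, was at 2.95, 1.67, 1.35 and 1.66 FPKM in the resting bulge, 24.2, 10.6, 18.4 and 9.23 in epidermis and 24.8, 21.0, 22.2 and 14.8 in the activated bulge. Replicate 2 of epidermis, at 10.6 and 9.23 at the 2 ages, lay below every activated library. It had the largest difference of the 4, 2.87 at 2 months (SE 0.418, adjusted p = 0.00214) and 2.93 at 24 months. Aurka, the kinase of spindle poles, was at 3.39, 2.71, 2.54 and 2.5 in the resting bulge, 25.4, 14.1, 24.9 and 13.7 in epidermis and 22.1, 18.1, 18.3 and 15.8 FPKM in the activated bulge, and had the smallest, 2.38 and 2.35 (SE 0.331, adjusted p = 0.00164 and 0.00213). Replicate 1 of epidermis exceeded every activated library for Aurka at both ages. Melk, a kinase of proliferating cells, was at 2.23, 1.05, 0.759 and 1.13 FPKM in the resting bulge, 16.1, 8.56, 12.8 and 9.09 in epidermis and 18.7, 17.1, 13.7 and 12.3 in the activated bulge. Nek2, a kinase of the centrosome, rose by 2.69 and 2.61.

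Of the 50, 7 belong to the spindle checkpoint or to the APC that it restrains, and 6 of them rose at both ages. Bub1b, the checkpoint protein BubR1, was at 3.6, 2.05, 1.97 and 1.86 FPKM in the resting bulge, 26.1, 16.7, 21.3 and 18 in epidermis and 27.1, 30.7, 26.2 and 22.9 in the activated bulge, 10.2-fold higher on activation at 2 months (log2 3, SE 0.280, adjusted p = 0.000284) and 12.9-fold at 24 months. Bub1, the checkpoint kinase, was the least abundant member of all in the resting bulge at 24 months, at 0.659, 0.281, 0.131 and 0.164 FPKM in the resting bulge against 3.40, 5.22, 3.34 and 6.14 in epidermis and 9.89, 10.4, 7.35 and 7.90 in the activated bulge. All 4 activated values of Bub1 lay above all 4 epidermal ones. Its ratio of group means, 21.6-fold at 2 months and 51.8-fold at 24 months, rests on 20.2 to 29.8 fragments per library in the resting bulge at 24 months, and the log2(FPKM + 1) scale, on which it rose by 2.93 and 2.91, understates changes of such low genes.

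The APC partners were among the most abundant members. Cdc20, which brings the APC to its targets at anaphase, was at 9.16, 5.45, 5.65 and 6.66 FPKM in the resting bulge, 82.5, 37.2, 80.5 and 49.6 in epidermis and 64.3, 50.4, 65.5 and 36.9 in the activated bulge, and Ube2c, the ubiquitin-conjugating enzyme of the APC, at 10.8, 5.94, 6.17 and 6.43 FPKM in the resting bulge, 109, 46.1, 102 and 51.9 in epidermis and 76.8, 57.8, 69.8 and 42.6 in the activated bulge. For both genes replicate 1 of epidermis was the highest library at both ages, and their mean was higher in epidermis than in the activated bulge. The rise from resting to activated bulge was 2.84 for Cdc20 (SE 0.441, adjusted p = 0.00292) and 2.90 for Ube2c (SE 0.480, adjusted p = 0.00409) at 2 months, and 2.82 and 2.93 at 24 months. Ttk, the kinase Mps1 that starts checkpoint signalling, was at 1.88, 2.57, 3.05 and 2.94 in the resting bulge, 5.71, 9.38, 7.06 and 11.5 in epidermis and 13.9, 11.3, 10.9 and 9.79 FPKM in the activated bulge. With Mad2l1, the checkpoint effector Mad2, it showed the smallest rises of the 48, by 2.08 and 1.5 for Ttk and 1.82 and 1.71 for Mad2l1.

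Bub3, which carries Bub1 and BubR1 to kinetochores, was the other exception. Its level was 43.5, 46.8, 51.1 and 46.4 FPKM in the resting bulge, 71.7, 32.4, 83.8 and 40.9 in epidermis and 48.0, 39.1, 45.6 and 31.4 in the activated bulge. The 4 resting libraries were close together, between 43.5 and 51.1, while the epidermal ones were split by replicate, high in replicate 1 and low in replicate 2. Activated minus resting bulge was -0.06 at 2 months (95% interval -1.01 to 0.90, adjusted p = 0.943) and -0.36 at 24 months (-1.31 to 0.60, adjusted p = 0.598). These intervals use a spread shared by all groups, the split epidermal libraries included. With limma fitted to only the groups compared, the adjusted p of Bub3 was 0.882 and 0.412. With library totals made equal both genes were above 0 at both ages, at 0.34 and 0.13 for Bub3 and 0.09 and 0.23 for Cdc25b, without passing, so their direction depends on the scaling.

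The chromosomal passenger complex, which corrects faulty attachments and later directs cytokinesis, was covered in full by its kinase Aurkb, survivin (Birc5), borealin (Cdca8) and the scaffold Incenp, and all 4 rose at both ages. Aurkb was at 3.39, 1.35, 1.51 and 1.49 FPKM in the resting bulge, 22.1, 13.9, 20.4 and 13.3 in epidermis and 29.2, 31.4, 26.7 and 23.4 in the activated bulge. The 4 activated libraries were all above the 4 of epidermis. Its rise was 3.28 at 2 months (SE 0.339, adjusted p = 0.000379) and 3.38 at 24 months (adjusted p = 0.000385). Birc5 (chromosome 11, 117710551 to 117717057, plus strand) was at 8.51, 4.95, 4.96 and 5.72 FPKM in the resting bulge, 68.4, 35.1, 55.6 and 44.0 in epidermis and 84.0, 56.3, 69.7 and 46.8 in the activated bulge and rose by 3.21 and 3.2 (SE 0.388), and Cdca8 by 2.90 and 2.82. A 972 nt transcript carried 89.6% to 98.8% of the Birc5 value in every library, beside a second one of 3416 nt. Incenp, at 5.36, 3.90, 4.67 and 4.42 in the resting bulge, 23.8, 22.6, 23.1 and 21.6 in epidermis and 30.5, 38.3, 27.5 and 28.1 in the activated bulge, had the smallest rise of the complex, 2.66 and 2.38 (SE 0.227, adjusted p = 0.000187 and 0.000317). Its 4 epidermal libraries spanned only 21.6 to 23.8 FPKM, and all 4 activated libraries lay above them.

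Centromere and kinetochore members were Cenpa, the histone H3 variant of centromeres, the kinesin Cenpe, the large matrix protein Cenpf and the spindle and kinetochore protein Spag5 (astrin), and all 4 rose at both ages. Cenpa was at 10.4, 7.14, 9.73 and 8.44 FPKM in the resting bulge, 74.5, 32.1, 56.1 and 47.8 in epidermis and 58.5, 44.7, 59.4 and 41.5 in the activated bulge, with the highest resting level of the members that rose at 24 months and the smallest rise in its role (2.44 and 2.33, SE 0.390, adjusted p = 0.00339 and 0.0053). Spag5, at 1.35, 0.760, 0.753 and 0.657 FPKM in the resting bulge, 11.8, 10.4, 9.32 and 9.90 in epidermis and 12.5, 17.2, 13.8 and 13.4 in the activated bulge, had the largest mean rise (2.95 and 3.10) and one of the smallest SE, 0.227. Cenpe and Cenpf, whose transcripts of 7813 and 11122 nt are among the longest of the list, rose by 2.95 and 2.87 at 2 months with SE of 0.535 and 0.554.

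Another 10 are spindle motors or microtubule-binding proteins, and all 10 rose at both ages, with a median of 3.01 at 2 months and 3.16 at 24 months. Kif11, the kinesin Eg5 that pushes the spindle poles apart (chromosome 19, 37450893 to 37496349, plus strand), was at 1.97, 0.713, 0.804 and 0.775 FPKM in the resting bulge, 8.50, 16.6, 10.2 and 18 in epidermis and 20.5, 27.7, 17.3 and 20.1 in the activated bulge. The resting libraries other than replicate 1 at 2 months were all under 1 FPKM. Its rise of 3.46 at 2 months (SE 0.379, adjusted p = 0.000494) and 3.45 at 24 months was 17.9-fold and 23.6-fold in group means. Tpx2, which nucleates microtubules and activates Aurora A, was at 2.5, 1.48, 1.53 and 1.12 FPKM in the resting bulge, 16.4, 14.2, 13.0 and 16.0 in epidermis and 21.7, 23.0, 20.9 and 16.8 in the activated bulge and rose by 2.99 and 3.09 (SE 0.246, adjusted p = 0.000176 and 0.000233). Its value sums 5 transcripts, and the share of the main one ranged from 1.55% to 78.6% between libraries. Kif4, a chromosome-bound kinesin on the X chromosome, had the smallest mean rise of the group, at 1.32, 0.832, 0.764 and 0.719 in the resting bulge, 6.93, 8.88, 7.21 and 11.3 in epidermis and 10.5, 12.8, 9.60 and 9.76 FPKM in the activated bulge (2.61 and 2.62, SE 0.251). The same role held Kif15 and Kif22, further spindle and chromosome kinesins, Kif2c, a kinesin that takes microtubules apart, Hmmr, Nusap1, Ckap2 and Ckap2l, with rises from 2.77 for Kif22 to 3.68 for Ckap2.

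A further 7 act at the central spindle or in cytokinesis, and all 7 rose at both ages. Prc1, which bundles the antiparallel microtubules of the midzone, was at 6.36, 4.10, 4.15 and 4.17 FPKM in the resting bulge, 31.9, 38.3, 39.6 and 36.5 in epidermis and 38.1, 47.0, 37.5 and 33.9 in the activated bulge. Its epidermal and activated libraries lay close together, between 31.9 and 47.0, with little of the split between replicates seen in other members. The rise was 2.82 at 2 months (SE 0.253, adjusted p = 0.000244) and 2.83 at 24 months. Kif23 and Racgap1 form the centralspindlin complex. Kif23, at 2.00, 1.07, 1.14 and 1.10 FPKM in the resting bulge, 10.8, 23.7, 16.5 and 25.2 in epidermis and 21.4, 27.5, 19.6 and 20.9 in the activated bulge, had the largest mean rise of the role over the ages, 3.34 and 3.33 (SE 0.358, adjusted p = 0.000448 and 0.000494), and Racgap1, at 4.86, 2.94, 2.98 and 2.93 FPKM in the resting bulge, 40.9, 24.9, 37.3 and 24.3 in epidermis and 41.3, 39.5, 34.6 and 26 in the activated bulge, rose by 3.11 and 2.97. Both were near 1 to 5 FPKM in the resting bulge and above 10 in every other library. Kif20b, a kinesin of the midbody, had the smallest mean rise and a large error, at 0.828, 0.352, 0.360 and 0.277 FPKM in the resting bulge, 1.79, 8.08, 3.45 and 9.32 in epidermis and 6.51, 10.7, 7.52 and 9.05 in the activated bulge (2.58 and 2.81, SE 0.530, adjusted p = 0.0122 and 0.0102). Ect2, the exchange factor that turns on RhoA at the furrow, Anln, the anillin that scaffolds it, and Kif20a, a kinesin that carries the passenger complex, rose by 2.86 to 3.49.

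The proteins of mitotic chromosomes gave the largest differences in the list. Mki67, the coat protein of mitotic chromosomes and the common marker of dividing cells (chromosome 7, 142881471 to 142908062, minus strand), was at 3.41, 1.13, 1.06 and 1.28 FPKM in the resting bulge, 13.1, 50.1, 18.2 and 47.3 in epidermis and 33.4, 82.0, 42.8 and 56.1 in the activated bulge. Its rise was 4.13 at 2 months (SE 0.666, adjusted p = 0.00356) and 4.53 at 24 months (adjusted p = 0.0027), or 25.4-fold and 42.2-fold. The SE was also the largest of the list, and in epidermis replicates 1 and 2 stood far apart at both ages. Top2a, the topoisomerase that untangles sister chromatids (chromosome 11, 98854261 to 98885503, minus strand), was at 8.82, 3.24, 2.90 and 3.5 FPKM in the resting bulge, 36.8, 57.9, 40.7 and 58.8 in epidermis and 81.5, 117, 68.7 and 80.3 in the activated bulge, the most abundant member in the activated bulge. All 4 activated libraries exceeded all 4 of epidermis, and the rise from the resting bulge was 3.93 and 4.17 (SE 0.411, adjusted p = 0.0004 and 0.00035). The condensin subunits Smc2, Smc4, Ncapg and Ncapd2, which compact chromosomes, all rose, Ncapg the most (3.24 and 3.47) and Smc4 the least in the mean over the ages. Smc4 was at 13.3, 10.0, 5.41 and 6.5 FPKM in the resting bulge, 14.8, 46.8, 22.7 and 57.2 in epidermis and 57.4, 62.1, 52.4 and 49.2 in the activated bulge (2.27 and 2.90, SE 0.515, adjusted p = 0.0185 and 0.00731). In the resting bulge at 2 months replicate 1, at 13.3, came close to the lowest epidermal library, at 14.8.

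Foxm1, the transcription factor that switches on many G2 and M genes, and Cdca3, a trigger of mitotic entry through protein destruction, made up the last role and rose at both ages. Foxm1 was at 1.84, 0.998, 1.23 and 1.45 FPKM in the resting bulge, 15.6, 12, 16.3 and 9.42 in epidermis and 17.9, 27.1, 16.8 and 18.8 in the activated bulge, a rise of 3.27 at 2 months (SE 0.313, adjusted p = 0.000284) and 3 at 24 months (adjusted p = 0.000435). All activated values exceeded all epidermal ones. Cdca3, at 12.4, 7.42, 6.15 and 7.55 FPKM in the resting bulge, 81.6, 37.1, 80.5 and 40.5 in epidermis and 83, 62.5, 73.4 and 51 in the activated bulge, rose by 2.78 and 2.99 (SE 0.450) and was among the 4 most abundant members in each of the 6 groups.

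**Figure D3:**
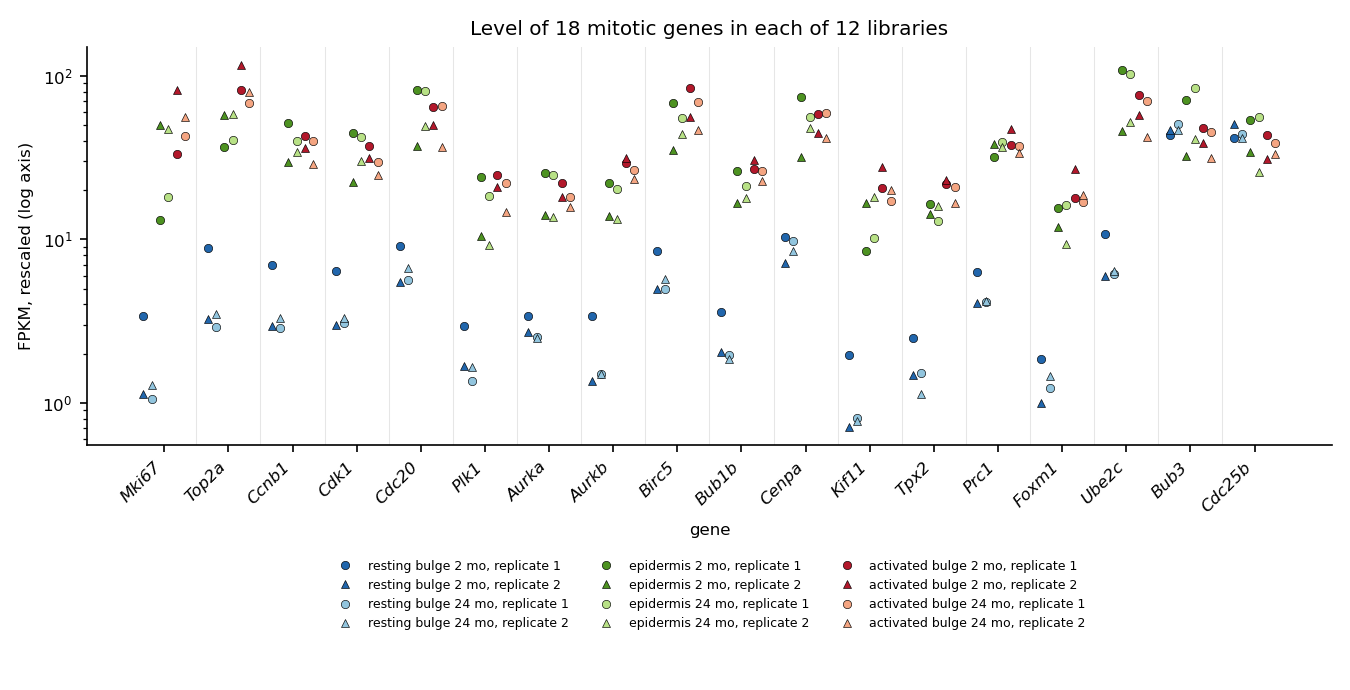
FPKM (log axis) of 18 mitotic genes in each of the 12 libraries, circles for replicate 1 and triangles for replicate 2, blue for resting bulge, green for epidermis and red for activated bulge, dark at 2 and light at 24 months. The blue points lie below all others except for Bub3 and Cdc25b at the right, and replicate 1 at 2 months is the highest blue point in the other 16 genes.

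Resting bulge was next set against interfollicular epidermis, likewise of telogen skin. At 2 months 47 of the 50 genes were lower in the resting bulge, where 7.15% of all genes tested were called lower, and at 24 months 48 were, against 7.74%. The median log2 difference was -2.48 at 2 months and -2.81 at 24 months, beside 0.18 and 0.11 for all genes. Mki67 had the largest difference, -3.13 at 2 months (SE 0.666, adjusted p = 0.00765) and -3.81 at 24 months (adjusted p = 0.00248), and was 13.9-fold and 28.0-fold higher in epidermis. Anln followed with -3.03 and -3.75. Smc4 missed the call at 2 months (-1.13, SE 0.515, adjusted p = 0.165), although its libraries did not overlap, and was lower at 24 months (-2.42, adjusted p = 0.00769). Cdc25b (0.10 and 0.17) and Bub3 (-0.10 and -0.26) missed it at both ages. The comparisons with activated bulge and with epidermis share the same resting libraries, so the counts do not stand independently of each other.

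Between activated bulge and epidermis, the 2 populations with high levels, few members passed. At 2 months 2 of the 50 genes were higher in the activated bulge, against 9.12% of all genes tested, and 10 had an unadjusted p under 0.05, a share (20%) below the 23.4% of all genes. The 2 that passed were the condensin subunit Ncapg, at 17.7, 19.4, 14.9 and 15.8 FPKM in the activated bulge and 4.82, 8.44, 5.84 and 10.6 in epidermis (1.40, SE 0.333, adjusted p = 0.0204), and Bub1 (1.09, SE 0.276, adjusted p = 0.0275). At 24 months limma called none, where 12.6% of all genes were called in either direction, and 2 members, again Ncapg (0.88) and Bub1 (0.63), had an unadjusted p under 0.05, as did 22.9% of all genes. The median log2 difference was 0.48 and 0.22, beside 0.12 and 0.04 for all genes. The value at 24 months was 0.09 or 0.33 when replicate 1 or 2 of activated bulge at that age was left out. It was 0.58 with equal library totals, which moved the median of all genes by 0.33. The 95% intervals of single members reached from -1.16 to 2.48 at 2 months and from -1.58 to 2.20 at 24 months, so for some genes differences of several fold in either direction lie within the interval. By group means the activated bulge was the highest population for 44 members at 2 months and 33 at 24 months, and epidermis for 5 and 16. Ccnb1, Bub3, Cdc20, Ube2c and Cenpa were highest in epidermis at both ages. The counts of calls depend on the libraries: leaving out replicate 1 of epidermis, replicate 1 of activated bulge or replicate 2 of activated bulge at 2 months left no call, and leaving out replicate 2 of epidermis gave 5.

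The libraries of epidermis and activated bulge differed between replicates with the length of the transcript. Among the 50 members, whose median length was 3167 nt, the 25 longer ones were 1.62-fold higher in replicate 2 than in replicate 1 of epidermis at 2 months in the median, while the 25 shorter ones were at 0.576 of it. In the activated bulge at 2 months the ratios were 1.22 and 0.843. Mki67, with a transcript of 10075 nt, was at 13.1 and 50.1 FPKM in the pair of epidermal libraries at 2 months, and Ube2c, of 931 nt, at 109 and 46.1. Across members the Spearman correlation of length with the difference between replicates was 0.78 and 0.66 in epidermis and 0.79 and 0.67 in activated bulge at 2 and 24 months, against 0.02 and -0.09 in the resting bulge on the log2(FPKM + 1) scale. Over all 12468 genes it was 0.53 and 0.23 in epidermis, 0.54 and 0.47 in activated bulge and -0.30 and 0.10 in the resting bulge. These are correlations over 50 genes of the same 2 libraries and are given as a description. With a trend over length removed from every library, 48 members were called higher on activation at both ages, as before. The replicates of activated bulge also differed in markers of other cells, with suprabasal and fibroblast genes higher in replicate 1. There Krt10 was at 4357, 320, 2173 and 769 FPKM, Lor at 854, 39.6, 515 and 79.9, and the fibroblast gene Dcn at 113, 0.281, 13.4 and 0.129. The part of these cells in the results was not tested.

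**Figure D4:**
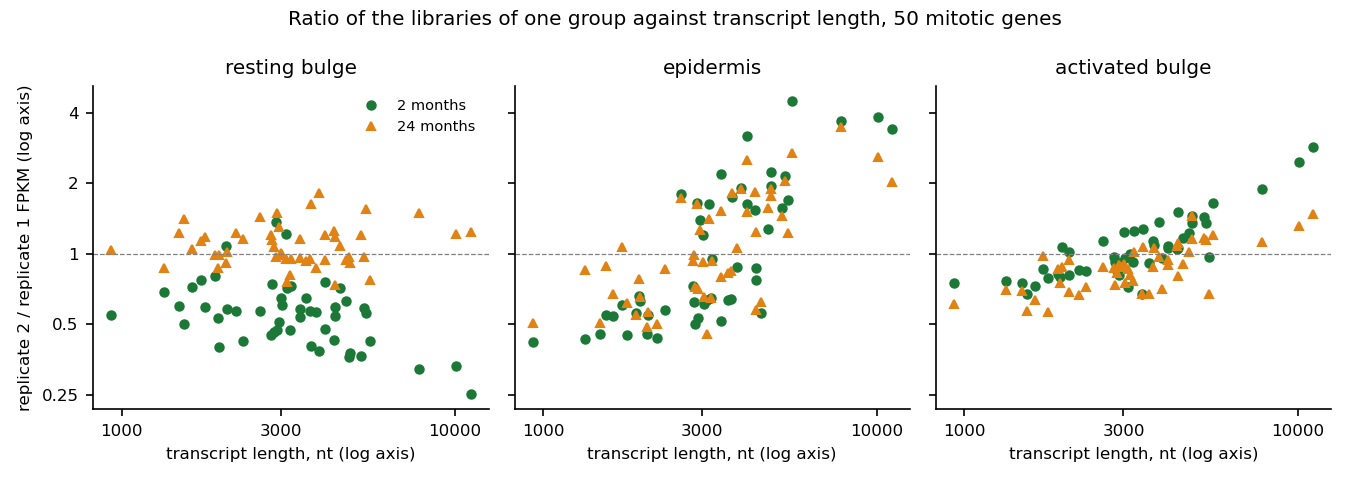
Ratio of replicate 2 to replicate 1 (log axis) against the length of the longest transcript in nt (log axis) for the 50 genes, at 2 months (circles) and 24 months (triangles), in each population. In epidermis and activated bulge the points climb with length; in the resting bulge at 2 months nearly all lie below 1, since 47 of 50 genes were higher in replicate 1.

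Age was compared within each population. No member passed in the resting bulge, epidermis or activated bulge, nor in the mean of the 3 age differences, and 0% of all 12468 genes did in any of these comparisons by limma. With an unadjusted p under 0.05 there was 1 member in the resting bulge and none in the others. In the resting bulge 47 of 50 genes were lower at 24 months, with a median log2 difference of -0.30 against 0.00 for all genes, and in 17 (34%) the groups did not overlap in this direction, beside 27.3% of all genes. Ttk did not overlap in the other direction. Ckap2, a spindle-associated protein, had the smallest p. It was at 3.51, 2.01, 0.944 and 1.35 FPKM in the resting bulge (-0.79, 95% interval -1.55 to -0.02), with 11.9, 21.4, 13.7 and 23.6 in epidermis and 28.4, 32.1, 28.1 and 24.7 in the activated bulge. Kif20a followed at 4.10, 2.66, 1.95 and 1.81 FPKM (-0.58, 95% interval -1.24 to 0.07), then Nusap1, a microtubule-bundling protein, at 3.36, 1.71, 1.29 and 1.68 (-0.47, 95% interval -1.10 to 0.15). In these 3 genes both libraries at 2 months lay above both at 24 months. The same held for Smc4, which had the largest difference (-0.85), at 13.3, 10.0, 5.41 and 6.5 FPKM. The median shift over the 50 genes, however, rests on a single library. Replicate 1 at 2 months was the highest of the 4 resting libraries in 47 of 50 genes, with a median of 1.79 times the median of the other 3 (from 0.638 for Ttk to 4.02 for Bub1). Without it the median age difference was -0.01, with 25 of 50 genes below 0, and without replicate 2 at 2 months it was -0.57. Replicate 1 at 2 months also stood apart in markers of other cells. Of 5 melanocyte genes, which summed to 4.14 to 31.3 FPKM in the resting bulge, Dct was at 20.7 in it and 3.22 to 5.10 in the other 3, and Mlana at 3.74 and at most 0.525. Of 6 suprabasal genes, with a sum of 2979 to 8254, Lor was at 13.1 in it and 157 to 175 in the others, and Krtdap at 991 and 2681 to 3339. The part of these cells in the age difference was not tested.

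In epidermis the median age difference was 0.08, beside 0.04 for all genes, and 32 of 50 genes were above 0 (64%), beside 60.8% of all genes. The median had no stable sign: it was -0.26 without replicate 2 and 0.10 without replicate 1 at 2 months, -0.05 without replicate 1 and 0.03 without replicate 2 at 24 months, and -0.09 with equal library totals. The smallest p belonged to Ect2, at 11.1, 18.1, 14.4 and 21.6 FPKM in epidermis (0.30, 95% interval -0.38 to 0.98), Ttk (0.27, -0.37 to 0.91) and Smc2, at 6.93, 15, 9.35 and 19.2 (0.36, -0.51 to 1.23). In none of the 3 did the ages separate, since replicate 2 at each age exceeded replicate 1 at the other. In the activated bulge 49 of 50 genes were lower at 24 months, with a median of -0.23 against -0.02 for all genes, and in 25 (50%) the groups did not overlap in this direction, beside 9.66% of all genes. The size of this median varied with the libraries. It was -0.33 without replicate 1 and -0.15 without replicate 2 at 24 months. Without replicate 1 or replicate 2 at 2 months it was -0.28 or -0.22. With quantile scaling it was -0.17, and with equal library totals -0.22. Bub1 (-0.37, 95% interval -0.99 to 0.25), Melk (-0.43, -1.15 to 0.29) and Racgap1 (-0.42, -1.14 to 0.31) had the smallest p there. Melk at 24 months was at 13.7 and 12.3 FPKM beside 18.7 and 17.1 at 2 months. For the mean of the 3 populations 45 of 50 genes were below 0, the median was -0.15 (-0.06 with replicate 1 of the resting bulge at 2 months left out, -0.24 with replicate 2 left out), and the smallest p were those of Kif20a (-0.30, 95% interval -0.68 to 0.08), Melk (-0.32, -0.74 to 0.10) and Tpx2 (-0.22, -0.54 to 0.09). Members share libraries, so a count of genes on the same side of 0 describes these few libraries and not 50 independent values.

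**Figure D5:**
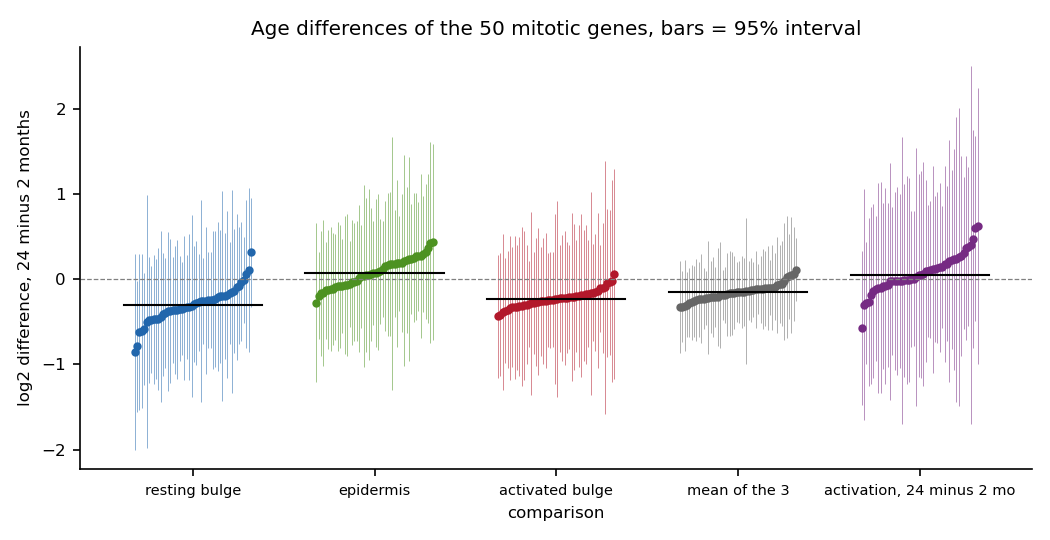
Age difference of each of the 50 genes on the log2(FPKM + 1) scale, sorted by size within a comparison, with 95% intervals from limma and the median as a black line. All intervals but that of Ckap2 in the resting bulge include 0, and the medians are -0.30, 0.08, -0.23, -0.15 and 0.05 from left to right.

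The difference between ages in the response itself, the rise at 24 months minus that at 2 months, was called for no member and 0% of all genes. Its median was 0.05 and no member had an unadjusted p under 0.05. Leaving out a resting bulge library at 2 months gave a median of -0.23 (replicate 1) or 0.34 (replicate 2), so its sign depends on a single library. Ttk, whose rise was 2.08 at 2 months and 1.5 at 24 months, had the smallest p (-0.58, 95% interval -1.48 to 0.33), followed by Ckap2 (0.60, -0.49 to 1.68) and Kif20a (0.38, -0.55 to 1.31). The intervals of all 50 together reached from -1.70 to 2.5. For the genes with the widest intervals a response at 24 months smaller or larger by several fold could not be detected. For the others, differences within their own narrower intervals could not.

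Other genes of the cell cycle were taken as lists outside the 50. Over all genes tested, 6.6% and 4.11% were called higher on activation at 2 and 24 months. In resting bulge 7.15% and 7.74% were called lower than in epidermis. Of 63 further mitotic genes 52 rose on activation at 2 months and 52 at 24 months (median log2 2.23 and 2.28), and 49 were lower in resting bulge than in epidermis at each age. Among the largest rises in this list were those of the condensin subunit Ncaph (3.09 and 2.99) and of Shcbp1, a cytokinesis protein (2.93 and 3.21). Securin (Pttg1), the inhibitor of separase, ran the other way, at 57.4, 55.6, 87.8 and 81.3 FPKM in the resting bulge and 28.7, 19.8, 36.7 and 19.7 in the activated bulge, where it fell by 1.61 at 24 months (adjusted p = 0.0227) and was at -1.21 at 2 months (adjusted p = 0.0511). Ncaph2, of the second condensin, was at -0.22 and -0.40.

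Of 48 genes of S phase and DNA replication 36 rose at 2 months and 33 at 24 months (median 1.80 and 1.59), led by thymidine kinase Tk1 (2.83 and 2.71) and the methylation factor Uhrf1 (2.72 and 2.78), while Gins4 (-0.25 and -0.08) and Rpa2 (0.27 and -0.17) gave the smallest values. Of 24 genes of G1 control and cell cycle inhibitors 5 rose and 1 fell at 2 months, and 2 rose and 1 fell at 24 months. Of all 12468 genes tested 823 rose and 772 fell at 2 months, and 512 rose and 486 fell at 24 months. Cdkn1c, the inhibitor p57, was at 6.95, 7.31, 17.1 and 12 FPKM in the resting bulge, 1.22, 0.745, 1.95 and 1.33 in epidermis and 0.780, 0.586, 1.15 and 0.294 in the activated bulge, and fell by 2.27 and 3.2 (SE 0.286, adjusted p = 0.000945 and 0.000233). Cdkn1b, the inhibitor p27, was at -0.79 and -0.75 and did not pass (adjusted p = 0.0616 and 0.0922). Rbl1 (p107) rose most of this list, by 1.83 and 2.02, then E2f3 by 1.43 and 1.43.

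Of the 10 subunits and partners of the MuvB and DREAM complexes, 3 rose at 2 months and 2 at 24 months. Mybl2, the B-Myb that turns MuvB into an activator, was at 0.793, 0.713, 0.456 and 0.490 FPKM in the resting bulge, 5.44, 2.59, 3.71 and 2.99 in epidermis and 7.46, 8.16, 5.39 and 6.23 in the activated bulge, and rose by 2.33 and 2.21 (SE 0.267, adjusted p = 0.000593 and 0.000925). Mybl1 was at 1.46 (adjusted p = 0.0441) and 1.52 (adjusted p = 0.0506). The core subunits Lin37 (-0.78 and -0.56) and Lin52 (-0.53 and -0.62) gave the smallest values and passed at neither age.

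The genes outside the 50 whose level most resembled the mean of the members over the 12 libraries, by Pearson correlation on the log2(FPKM + 1) scale, were Prr11 (0.995), Nuf2 (0.993), F630043A04Rik, which RefSeq lists as Ska3 (0.992), Arhgap11a (0.991) and Kifc5b (0.990). Kifc5b has a close paralog, Kifc1, between which reads may be split. These correlations describe 12 libraries in which the main contrast is resting bulge against the rest.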

How the data were processed

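Sorted cells had been collected in Trizol LS and their RNA made into mRNA libraries with a TruSeq kit, per the labels' protocols. TopHat, Cufflinks and the build mm9 are named in the submitters' processing notes, with no version. The authors deposited 1 transcript table per library, whose values are FPKM (28018 transcripts of 22033 genes), read here from a text column of attributes and so recorded as another unit. The deposited FPKM were 12533 to 18522 times the usual scale, for a reason not given in the sources used here, and were divided by a common constant of 16679.9, which changes no ratio. The factor differed between libraries. It was 12533 to 15941 in the replicate 2 libraries of epidermis and activated bulge and 17168 to 18522 in the others. A common constant leaves these differences in the values, and the ratios between replicates include them.

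FPKM were summed per gene. Genes at 1 FPKM or more in at least 2 libraries with a transcript of at least 300 nt were kept, 12468 in all, after 2 failed estimates (Krt5 and Krt14, listed at 0 beside at least 1000 FPKM) were left out. limma 3.58.1 in R 4.3.3 fitted 6 group means over the 12 libraries to log2(FPKM + 1), a scale that understates changes of low genes, with a variance trend and Benjamini-Hochberg adjustment over all genes tested in each of 11 comparisons. Intervals are 95% and unadjusted. Tested on simulated data for activated against resting bulge at 2 months over 12468 genes, the fit recovered 173 of 200 changes of log2 2. The simulated noise was independent between genes and libraries, with the same spread in all groups. Changes were set only in genes with a mean log2(FPKM + 1) above 2. The share recovered in the real libraries may therefore differ.

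Values are given per library for a panel of 16 genes, for the members with the largest and smallest mean activation difference per role, for those missing a call on activation and for the 3 of smallest p in each age comparison. The members and lists were chosen with earlier results of these data known. Alternatives were quantile scaling, equal totals, other filters and pseudocounts, the main transcript only, no trend, only the groups compared, a replicate block and leaving out each library. Removal of a length trend, leaving out the replicate 1 or replicate 2 libraries of epidermis and activated bulge, and a crossed block were chosen after seeing the data. Promoter windows come from RefSeq on GRCm38.p6, gene positions from the deposited files on mm9, and the builds were not mixed; where a gene had several windows the first was used.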

Additional observations from a re-analysis of the deposited data

Results flagged for a closer look

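Libraries from wounded skin, 1 at each age, stand outside the comparisons above. They were quantified by the authors against another annotation, on the usual FPKM scale, so they were kept apart from the 12 libraries and no test is possible. All 50 mitotic genes were found there by transcript identifier, and 47 were at 1 FPKM or more in both libraries. Only transcripts with an annotated identifier were summed, 84037 of 108060 at 2 months and 84048 of 109978 at 24 months. The others were left out, and whether a value of 0 or a ratio reflects this was not tested. The median member was at 11.4 FPKM at 2 months and 19.6 at 24 months. Of the 47, 42 were higher at 24 months and 5 were lower (Bub3, Nusap1, Ckap2l, Kif20b and Ncapg). The median ratio of 24 to 2 months was 1.5, from 0.213 for Kif20b to 4.90 for Incenp, beside 1.08 over 9827 genes at 1 FPKM or more in both, of which 55.6% had a ratio above 1. Mki67 was at 16.0 and 29.5 FPKM at 2 and 24 months, Top2a at 48.3 and 69.9, Cdk1 at 116 and 158, and Ube2c at 51.6 and 80.1. Of the other 3, Cdc25b and Foxm1 were listed at 0 at 2 months and at 23.0 and 7.85 at 24 months, and Kif20a was listed at 0 in both. With 1 library per age, the age and the library cannot be told apart.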

How the results depend on the processing

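The rise on activation was called for 41 to 48 members at each age when a library was left out, and for 48 under the other alternatives. Without the replicate 1 libraries of epidermis and activated bulge a 49th call, a fall, was added at each age: Cdc25b at 2 months (-0.54, adjusted p = 0.0227) and Bub3 at 24 months (-0.62, adjusted p = 0.00696), where over all alternatives the adjusted p reached 0.955 and 0.947. That setting leaves 1 library in each group of epidermis and activated bulge, which is assumed to vary like the resting bulge. No member passed in any age comparison or in the comparison of the response between ages under any of the 26 alternatives. Over 193 called differences of single members and these alternatives, 5018 values in all, 0 changed direction and 97 no longer passed. Equal totals moved the median of all genes by 0.35 and 0.41 on activation at 2 and 24 months, and calls over all genes went from 823 higher and 772 lower to 1438 and 565 at 2 months; the members' median less that of all genes was then 2.96 and 3.07.

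The count for activated bulge against epidermis at 2 months, 2 members, was less stable. It was 0 with quantile scaling, equal totals, no filter, a pseudocount of 0.1 or only the groups compared, 1 with the main transcript, 4 with the length trend removed, and 0 to 5 with a library left out. Without the 4 replicate 2 libraries of epidermis and activated bulge it was 11 (10 higher and Bub3 lower), and without the 4 replicate 1 libraries 6. At 24 months, where none was called, these last gave 7 (6 higher and Bub3 lower) and 2. In both settings single libraries are compared, with all residual spread taken from the resting bulge, so these counts say nothing of the spread within either population compared. The cause was not tested. Between the groups of epidermis and activated bulge the deviations of same-numbered libraries correlated positively in all 6 pairs of groups (0.18 to 0.79), while pairs with a resting bulge group gave -0.58 to 0.11. The labels do not say what a number shares, so whether the numbers pair samples across epidermis and activated bulge cannot be told from 2 numbers. With the replicate block 3 members were called at 2 months. With the numbers of the resting bulge at 2 months crossed 7 were called, with 1 at 24 months. The crossing leaves the numbers of epidermis and activated bulge as labelled. The counts for these alternatives are given without the share of all genes called in the same setting. Whether members were called more often than other genes there cannot be told from the counts alone.

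Within single libraries the deposited confidence bounds of the members were widest in the resting bulge, where the members' levels were low. Its libraries were not the shallowest (36.4 M to 45.5 M fragments, against 22.4 M to 41.4 M in epidermis and 23.5 M to 34.2 M in activated bulge). For the 42 members with a single transcript the bounds had a median half-width of 12.5% there, against 4.52% in epidermis and 4.14% in the activated bulge. Between replicates, however, the correlation over all genes tested was highest in the resting bulge, 0.984 and 0.9965 at 2 and 24 months. It was 0.943 and 0.948 in epidermis and 0.919 and 0.959 in activated bulge. Among members, replicate 1 of the resting bulge at 2 months was a median of 1.77-fold above replicate 2. With 2 libraries a group the median SE over all genes, from a spread shared by the 6 groups, was 0.325.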
